A study of Saccharomyces kudriavzevii and Saccharomyces cerevisiae and Kluyveromyces marxianus with 12 samples.

Results

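The heat shock of *Kluyveromyces marxianus* strain DMKU3-1042 was followed by poly(A) RNA sequencing in 4 of the 12 libraries of a study that put yeasts of 3 species through heat shock. Cells of this MATα strain were grown at 37 °C in YPD with 2% dextrose and then held for 8 min at 46 °C (2 libraries, labelled as biological replicates 1 and 2) or at 37 °C (2 libraries, labelled likewise). The other 8 libraries hold *Saccharomyces cerevisiae* BY4742 at 40 °C and 33 °C and *Saccharomyces kudriavzevii* FM1389 at 31 °C and 24 °C, and are used here only for comparison. Every gene with a KLMA identifier was included, which gave 4952 of the 16518 genes in the files of the 3 species. The files do not pair these identifiers with gene names, and only KLMA_30299 could be named, as PAB1. Function and sequence are therefore left aside for the other genes, and the response is described by its size, its direction, the levels at which it took place and the number of genes that carried it.

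A sudden rise in temperature slows or stops growth in yeast and sets off a rapid change of the transcriptome. Heat shock factor 1 (Hsf1) binds the promoters of chaperone genes such as those of the Hsp70 family and drives their transcription, while transcripts for making ribosomes and for translation fall. Much of this was worked out in *S. cerevisiae*. *K. marxianus* is a thermotolerant yeast that split from that lineage before its whole-genome duplication. Pab1, the product of PAB1, coats the poly(A) tails of mRNA, acts in translation and mRNA stability, and collects in stress granules when cells are heated.

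The 2 libraries at 46 °C had 18981480 and 21480075 reads on genes, and the 2 libraries at 37 °C had 23996907 and 22071153. Heat shock separated the libraries far more than replication did. Across genes, Pearson's r of log2(CPM + 1), where CPM is the count scaled to a common library size with TMM factors, was 0.983 between the 46 °C replicates and 0.988 between the 37 °C replicates, against 0.784 to 0.802 for the 4 pairs of a 46 °C and a 37 °C library. The standard deviation of the log2 ratio over genes was 0.369 within 46 °C and 0.323 within 37 °C, and 1.25 to 1.34 between temperatures. Reads given to no gene made up 12.8% and 11.0% at 46 °C and 7.93% and 7.57% at 37 °C; their part in the results was not tested. With 2 libraries per temperature, an exact permutation test on a single value such as a share cannot go below a two-sided p of 0.33. The tests on single genes come from a fit across all genes and measure the spread between these libraries.

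Of the 4952 genes, 4894 had enough counts to be tested, and 58 did not. None of the 58 had more than 32 counts in a library, and 25 genes had none in any library. The quasi-likelihood test of edgeR, with Benjamini-Hochberg adjustment, called 61.5% of the tested genes at an adjusted p under 0.05. The 1458 genes called higher at 46 °C were 29.8% of those tested and the 1550 called lower were 31.7%, so the calls were split nearly evenly. Many of them were small: 1352 of the 3008 calls lay under a 2-fold change, and the middle 50% of all log2 fold changes ran from -0.71 to 0.69. Without 37 °C replicate 2, 1106 genes were called higher and 987 lower. The split depends on scaling. With library totals in place of TMM the median log2 fold change of all tested genes moved to -0.16, against -0.01 with TMM, and 40.9% of calls were then higher, against 48.5% with TMM and 50.3% with the RLE scaling of edgeR.

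Among large changes, rises outnumbered falls. At least 2-fold, 822 genes rose and 834 fell (705 and 1023 with library totals). At least 4-fold, the counts were 298 and 204, at least 8-fold 124 and 60, at least 16-fold 62 and 16, and at least 32-fold 34 and 3. A rise of at least 64-fold was found for 20 genes, and none fell that far. The surplus of rises at 16-fold and over was found in each of the alternative fits, with 55 to 75 genes higher and 12 to 24 lower. Among the other species, *S. cerevisiae* also had a surplus of rises at 16-fold and over, while *S. kudriavzevii* had a surplus of falls. Genes were not paired between species, and no test between them was made. The same test called 66.4% of tested genes in *S. cerevisiae* and 23.5% in *S. kudriavzevii*. In *S. cerevisiae*, 32 genes rose and 6 fell by at least 16-fold, while at 4-fold falls outnumbered rises with 209 higher and 344 lower. In *S. kudriavzevii*, whose replicates spread more (common dispersion 0.0658, against 0.0272 in *K. marxianus* and 0.0112 in *S. cerevisiae*), 39 genes rose and 67 fell by at least 16-fold.

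**Figure D1:**
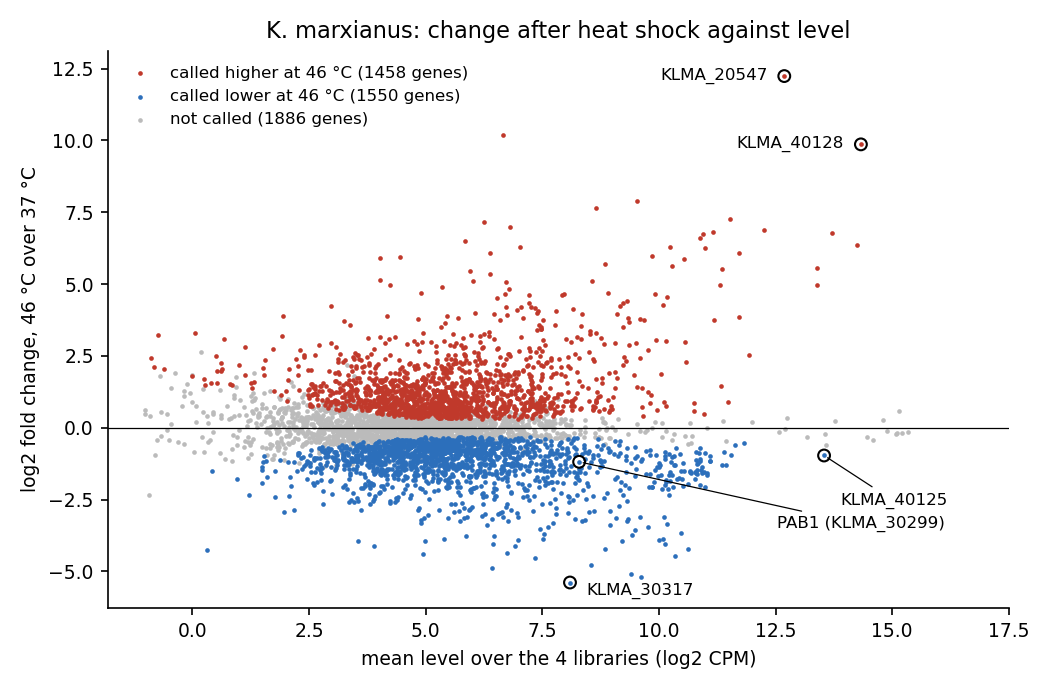
Log2 fold change (46 °C over 37 °C) of the 4894 tested *K. marxianus* genes against their mean level over the 4 libraries in log2 CPM, with each point a gene, coloured by its call (adjusted p under 0.05) and the 5 named genes ringed. The farthest rises lie above the zero line at high mean levels, up to 12.24, whereas the farthest fall reaches -5.39.

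Genes were called in both directions at every level. The tested genes were divided into 5 classes of equal size by their mean log2 CPM over all 4 libraries. The lowest class, at 0.496 to 13.1 CPM, had 19.8% of its genes called higher and 19.1% called lower. The share of calls climbed with each class, and with it the counts behind each test, to 36.1% higher and 42.1% lower in the top class, which starts at 102 CPM. The spread of the fold change, which needs no call, was much the same in the 3 lower classes and wider at the top: its standard deviation was 1.07, 1.04, 1.04, 1.33 and 1.99 on the log2 scale from the lowest to the highest class. Of the 62 genes that rose at least 16-fold, 47 were in the top class, and so were 11 of the 16 that fell as far. These classes are not levels before heat shock, because the mean includes the 46 °C libraries and a very large rise by itself moves a gene up. At 37 °C the 62 genes had a median of 13.8 TPM (transcript abundance corrected for coding length and depth). The medians of all genes in the 37 °C libraries were 21.0 and 20.3 TPM. Selection of the 62 by the same counts favours low 37 °C levels, and the 1886 genes not called had a similar median of 14.9 TPM.

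The median gene of each class moved little. Medians of the log2 fold change were 0.07, -0.05, 0.00, 0.00 and -0.17 from the lowest to the highest class. The median of the top class was not stable, since it ran from -0.35 to 0.15 when single libraries were left out. Over all 4894 genes Spearman's rho between log2 fold change and mean level was -0.0458, given as a description, with both measures drawn from the same libraries.

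Coding length went with the direction of change to a small extent. In the shortest of 5 classes of tested genes by length, with a median coding length of 489 bases, 27.7% were called higher and 35.1% lower. The order was turned round in the longest class, with a median of 2781 bases, where 37.2% were called higher and 23.6% lower. Median log2 fold changes from the shortest to the longest class were -0.11, -0.16, -0.10, 0.05 and 0.16, and Spearman's rho with length was 0.0993 over all 4894 genes. The genes with the largest rises did not share this order. In the shortest class 13 genes rose and 4 fell by at least 16-fold, against 9 and 0 in the longest. The 62 genes with a rise of at least 16-fold had a median coding length of 1113 bases, against 1359 bases for all genes called higher, 1176 bases for all called lower and 1286 bases for those not called.

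The genes that rose came to hold over 40% of the reads. Taken as a whole, the 1458 genes called higher had 43.6% and 40.9% of the reads on genes in the 46 °C libraries, against 8.55% and 8.10% in the 37 °C libraries. The 1550 genes called lower had 15.3% and 13.4% at 46 °C, against 41.0% and 41.4% at 37 °C. These genes were sorted by the same counts, so the shares describe the calls and carry no test.

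The 62 genes with rises of at least 16-fold made the largest part of that shift. They took 24.2% and 21.4% of the reads at 46 °C, against 0.444% and 0.291% at 37 °C. The 236 genes that rose 4- to 16-fold took 7.24% and 7.05% at 46 °C, against 1.12% and 1.04% at 37 °C, and the 524 that rose 2- to 4-fold took 5.41% and 5.62%, against 2.31% and 2.22%. Per length, the median of the 62 genes was 425 TPM at 46 °C, against 13.8 TPM at 37 °C. The 2- to 4-fold risers had a 37 °C median of 11.0 TPM, close to that of the 62, and reached 27.9 TPM at 46 °C. Genes of the corresponding class took a smaller share of the reads in the other species, with 8.82% and 9.33% in heat-shocked *S. cerevisiae* and 14.4% and 10.1% in heat-shocked *S. kudriavzevii*.

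Genes with large falls had a high median level at 37 °C, which their selection by the same counts favours. The 204 genes with a fall of at least 4-fold had a median of 14.7 TPM at 46 °C, against 93.8 TPM at 37 °C, and a share of reads of 1.21% and 1.13% at 46 °C, against 8.70% and 9.38% at 37 °C. A larger share left the 630 genes that fell 2- to 4-fold, which had 7.34% and 5.70% at 46 °C, against 19.7% and 19.5% at 37 °C. The 1886 genes that were not called had nearly level medians, 14.6 TPM at 46 °C and 14.9 TPM at 37 °C. They held 41.1% and 45.7% of the reads at 46 °C, against 50.5% in each library at 37 °C.

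**Figure D2:**
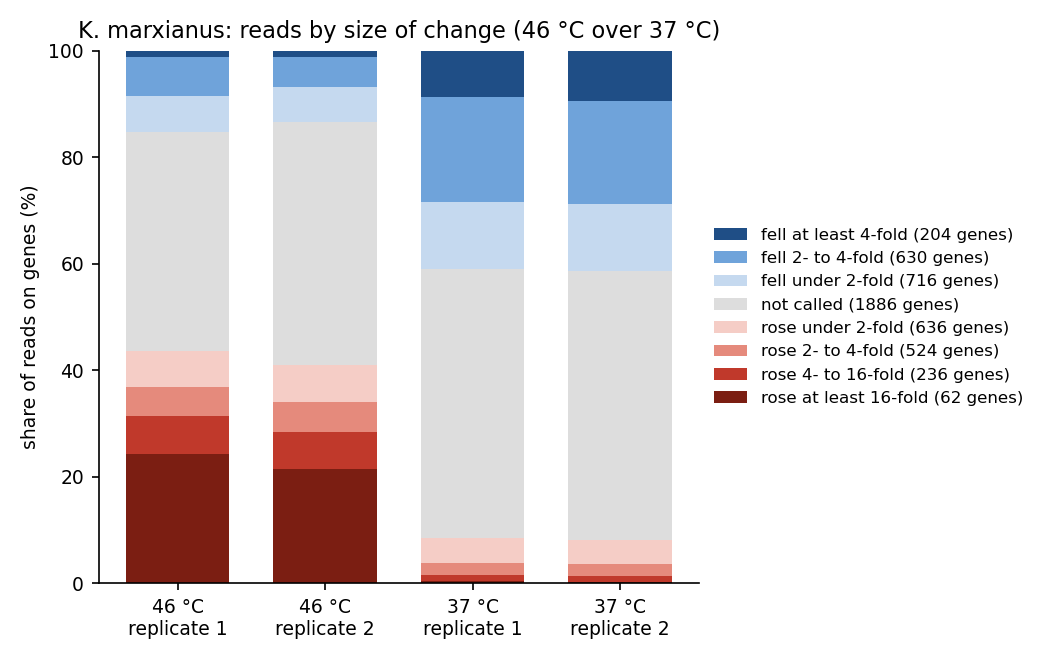
Share of the reads on genes (%, vertical axis) in each of the 4 *K. marxianus* libraries, with 46 °C on the left, stacked by the called direction and fold of each gene. The dark red segment of 62 genes fills 24.2% and 21.4% of the 46 °C bars and 0.444% and 0.291% of the 37 °C bars.

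The gain was gathered on far fewer genes than the loss. Summed over all genes with a higher mean CPM at 46 °C, 50% of the gain lay on 11 genes (10 to 12 with single libraries left out), whereas 50% of the loss was spread over 68 genes (62 to 73). The 10 leading genes held 49.3% of the gain and 16.6% of the loss. For the loss this share ran from 12.9% to 22.4% when single libraries were left out, the highest being without 46 °C replicate 2. The 100 leading genes held 80.7% of the gain and 61.3% of the loss. In *S. cerevisiae* 50% of the gain lay on 25 genes and 50% of the loss on 93, and in *S. kudriavzevii* on 24 and 132 genes. The ranges with single libraries left out were 24 to 26 genes in *S. cerevisiae* and 23 to 26 in *S. kudriavzevii* for the gain, above the 10 to 12 of *K. marxianus*. For the loss they were 91 to 95 genes in *S. cerevisiae* and 100 to 200 in *S. kudriavzevii*, where the value was not stable. The species also differed in their temperatures and in the genes tested (4894 in *K. marxianus*, 5786 in *S. cerevisiae*, 5490 in *S. kudriavzevii*), and no test between them was made.

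**Figure D3:**
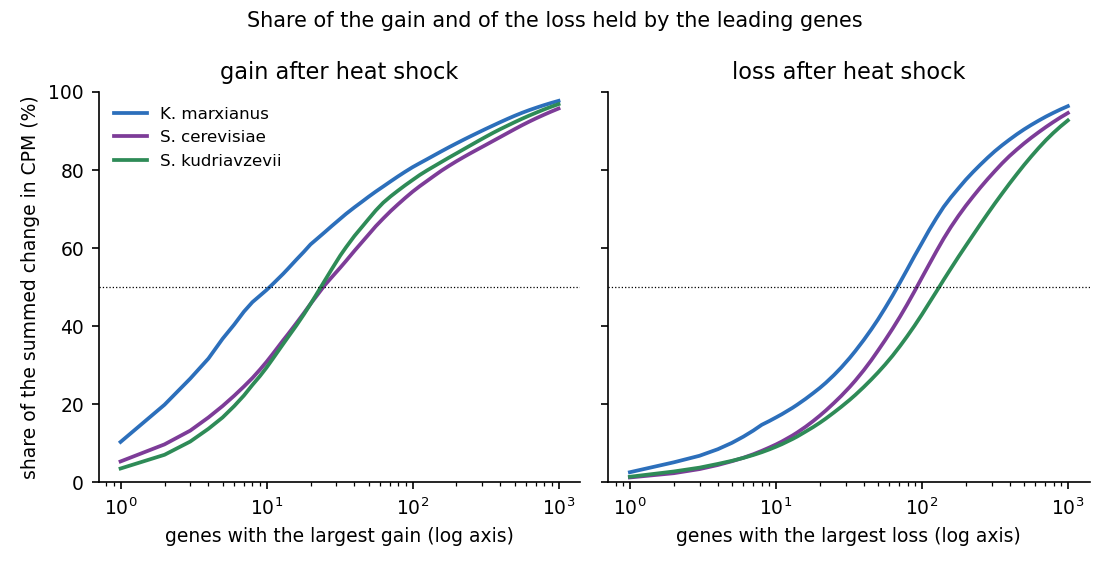
Cumulative share (%) of the summed gain (left) and of the summed loss (right) in mean CPM after heat shock against the number of leading genes on a log axis, with 1 line per species and the dotted line at 50%. The *K. marxianus* line crosses 50% at 11 genes for the gain and at 68 genes for the loss.

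Of the 11 genes with 50% of the gain, 10 were called higher, and the remaining gene, which was already abundant at 37 °C, had a log2 fold change of 0.58 that was not called. Together the 11 genes took 23.1% and 21.2% of reads at 46 °C, against 3.36% and 3.28% at 37 °C. The 68 genes with 50% of the loss were mostly moderate fallers. Their median log2 fold change was -1.56, and 58 of them were called lower and 10 were not called. They kept 27.0% and 29.0% of the reads at 46 °C, against 46.0% and 47.0% at 37 °C. A ranking by loss in CPM picks abundant genes, which favours moderate falls and large remaining shares. Ranking by gain or loss in the same counts also favours calls in that direction. Of all tested genes, 29.8% were called higher and 31.7% lower. The lowest mean among the 68 at 37 °C was 668 TPM.

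The 10 genes with most reads in a library held 33.2 ± 1.71% at 46 °C and 33.1 ± 0.755% at 37 °C (SD, n = 2 each; two-sided exact permutation p = 1), and the groups overlapped. By TPM the corresponding shares were 31.0% at 46 °C and 28.1% at 37 °C, a difference that was not tested. The top 50 genes held 59.5 ± 1.55% at 46 °C and 51.0 ± 0.237% at 37 °C (SD, n = 2 each; exact p = 0.33, the smallest possible), with no overlap. It took 26 and 22 genes to reach 50% of the reads at 46 °C, against 47 and 46 genes at 37 °C. In the other species the top 10 shares were lower and lay farther apart, with means of 18.2% after heat shock and 11.1% in controls of *S. cerevisiae*, and 16.7% and 10.1% in *S. kudriavzevii*.

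Of the 10 genes with most reads, 7 were the same at both temperatures. None of these 7 was called, and together they held 21.3% and 24.9% of the reads at 46 °C, against 25.5% and 26.1% at 37 °C. The other 3 places at 46 °C were filled by genes called higher. Of the 3 genes displaced, 1 was called lower and 2 were not called.

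Ranked by TPM, which takes coding length into account, 52 of the 100 most abundant genes at 46 °C were also among the 100 at 37 °C. Single libraries shared 90 of their top 100 within 46 °C and 99 within 37 °C, and at most 56 between temperatures. Of the 100 at 46 °C, the other 48 were newcomers, of which 20 had ranked below 500 at 37 °C, 12 below 1000 and 3 in the lower 50% of all genes. Of the top 100 at 37 °C, 1 ranked below 500 at 46 °C and none below 1000. Yet 77 of these 100 were called lower, against 31.7% of all tested genes, though a list picked for high 37 °C levels favours falls. Of the top 100 at 46 °C, 47 were called higher, against 29.8% of all tested genes, though a list picked for high 46 °C levels favours rises. Another 29 were called lower, near the 31.7% of all tested genes. These 29 genes fell and stayed abundant, at a share that does not set the list apart.

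Genes were seldom switched from silence. Under 1 TPM in both libraries were 83 genes at 46 °C and 114 at 37 °C. Only 2 genes had under 1 TPM in both 37 °C libraries and over 10 TPM in both 46 °C libraries. One gene had under 10 counts in both 37 °C libraries and at least 100 in both 46 °C libraries, and no gene had the reverse pattern.

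The 20 genes with rises of at least 64-fold had log2 fold changes of 6.08 to 12.24. Their median was 2585 TPM at 46 °C, against 19.4 TPM at 37 °C. They took 16.7% and 14.4% of all reads on genes at 46 °C, against 0.152% and 0.0989% at 37 °C, and 13 of them were among the 100 most abundant genes at 46 °C and none at 37 °C. Replicate 1 stood above replicate 2 for nearly all of them: in CPM, 17 of 20 were higher in replicate 1 at 46 °C, and 19 of 20 at 37 °C, by a median ratio of 1.39 and up to 8.08. Of all tested genes, 47.9% were higher in replicate 1 at 46 °C and 50.3% at 37 °C. The part of this difference between replicates in the fold changes was examined by leaving out single libraries, as given for the genes named here. The 16 genes with falls of at least 16-fold had a median of 17.8 TPM at 46 °C, against 424 TPM at 37 °C, and 0.0591% and 0.0590% of reads at 46 °C, against 1.36% and 1.52% at 37 °C.

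The genes that led each direction showed these features one by one. KLMA_20547, with a coding length of 1122 bases, had the largest rise. It had 279532 and 222890 counts at 46 °C, against 119 and 17 counts at 37 °C, or 11976 and 8890 TPM at 46 °C, against 3.81 and 0.589 TPM at 37 °C. It thus ranked 14 and 21 by TPM after heat shock, against 4495 and 4827 of 4952 genes without it, and its groups lay far apart. Its log2 fold change was 12.24 (SE 0.985, edgeR adjusted p = 0.000385), and it ran from 11.54 to 14.10 with single libraries left out.

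KLMA_40128, of 582 bases, had the largest gain in CPM and by TPM was the most abundant transcript in both 46 °C libraries. By reads it did not lead in 46 °C replicate 2, where the leading gene held 4.33%. It had 829948 and 742435 counts at 46 °C, against 1996 and 250 counts at 37 °C. In TPM the values were 68549 and 57086 at 46 °C, against 123 and 16.7 at 37 °C, and the rank at 37 °C was 650 in replicate 1 and 2723 in replicate 2. By itself the gene took 4.37% and 3.46% of reads after heat shock and made up 10.4% of the summed gain. Its log2 fold change was 9.86 (SE 1.19, edgeR adjusted p = 0.00142), with a range of 9.12 to 11.88 when single libraries were left out, and its 37 °C replicates differed by 7.01 times in CPM.

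KLMA_30317, of 249 bases, had the largest fall. It had 215 and 276 counts at 46 °C, against 13760 and 12132 counts at 37 °C. Per length this was 41.5 and 49.6 TPM at 46 °C, against 1987 and 1892 TPM at 37 °C. The replicates were close at each temperature, and the log2 fold change of -5.39 (SE 0.153, edgeR adjusted p = 6.52e-05), which is a 41.9-fold lower level, stayed between -5.49 and -5.29 with single libraries left out.

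KLMA_40125, of 747 bases, had the largest loss in CPM among called genes and is an example of a fall at high abundance. It had 132573 and 179174 counts at 46 °C, against 383576 and 378986 counts at 37 °C. The gene ranked 21 and 17 by TPM at 46 °C, with 8531 and 10734 TPM, against 9 in both libraries at 37 °C, with 18463 and 19706 TPM. Its log2 fold change was -0.97 (SE 0.224, edgeR adjusted p = 0.0135), and the groups did not overlap. The call was lost without 37 °C replicate 2, where the log2 fold change was -0.82 and the adjusted p 0.0926. It made up 2.61% of the summed loss, against the 10.4% of the gain on KLMA_40128.

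PAB1 (KLMA_30299), which encodes the poly(A)-binding protein, fell. It had 3816 and 3485 counts at 46 °C, against 11026 and 10062 counts at 37 °C. Its level was 103 and 88.0 TPM at 46 °C, against 224 and 220 TPM at 37 °C, or 95.7 ± 11.0 TPM and 222 ± 2.24 TPM (SD, n = 2 each), with no overlap. The log2 fold change was -1.19 (SE 0.147, edgeR adjusted p = 0.00153), a 2.28-fold lower level. It was called lower in each of the 12 alternative fits, with log2 fold changes of -1.34 to -1.05. PAB1 was no extreme among the genes that fell, since 13.5% of tested genes had a lower log2 fold change, and it ranked 760 and 902 by TPM at 46 °C, against 409 and 414 at 37 °C.

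The genes for poly(A)-binding protein in the other species also had negative log2 fold changes, though at higher TPM both after heat shock and in controls. Differences between species were not tested. In *S. cerevisiae*, PAB1 (YER165W) had 194 and 195 TPM at 40 °C, against 397 and 448 TPM at 33 °C, with a log2 fold change of -1.37 (SE 0.0988, edgeR adjusted p = 3.45e-05). In *S. kudriavzevii*, PAB1 (SKDZ_05G2450) had 266 and 349 TPM at 31 °C, against 889 and 433 TPM at 24 °C, with a log2 fold change of -0.88 (SE 0.463) that did not pass the test (edgeR adjusted p = 0.215). The wide SE there goes with 24 °C libraries that lie far apart.

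**Figure D4:**
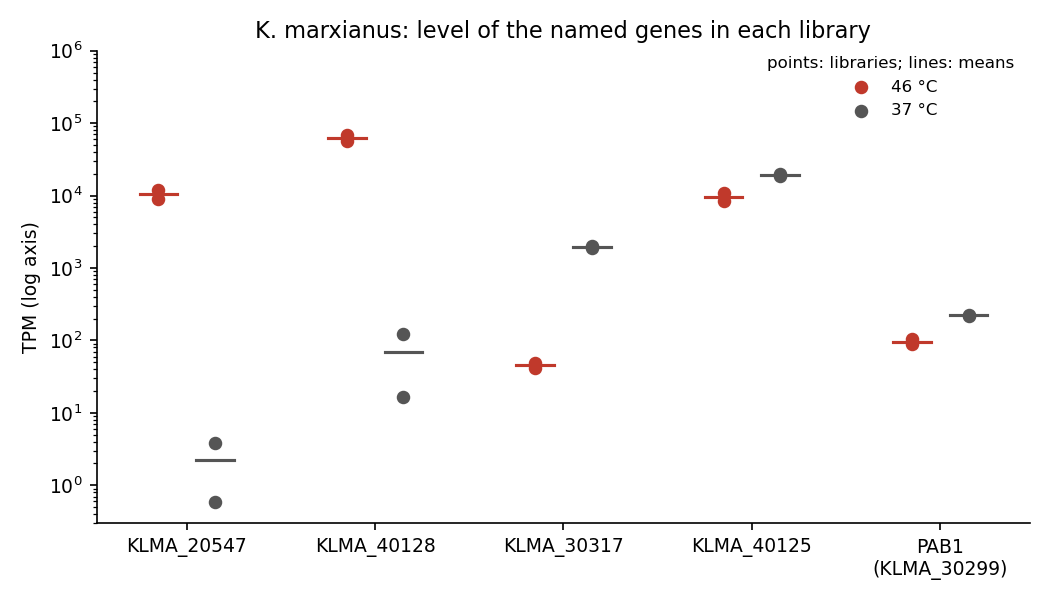
Level in TPM (log axis) of the 5 named *K. marxianus* genes in each library, with 46 °C (red) left of 37 °C (grey), points for libraries and lines for means. KLMA_20547 and KLMA_40128 stand far higher at 46 °C, with scattered 37 °C points, whereas the points of KLMA_30317 (41.5 and 49.6 TPM at 46 °C, 1987 and 1892 TPM at 37 °C) and of PAB1 lie close together at each temperature.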

How the data were processed

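Poly(A) RNA was sequenced with paired ends, and groups were taken from the labels. According to the submitters' notes and the study's methods, reads were trimmed with Trim Galore 0.6.10, aligned with STAR 2.7.10b (to Kmar_1.0 for *K. marxianus*) and counted on coding sequences with HTSeq 2.0.2 without strand. Reads with several alignments, as near-identical genes give, were counted for no gene, nor were reads of 2 overlapping genes. The deposited counts are whole reads per gene of each library, with no normalization. The 5 tallies of unassigned reads at the end of each table stayed out of library sizes and tests (7.57% to 12.8% of reads in *K. marxianus*). The TPM values deposited by the authors stand in a single column for all libraries, which was therefore read as a score, beside gene lengths; TPM computed from the counts and lengths differed from them by at most 7.28e-12. All 4952 *K. marxianus* lengths are multiples of 3 and hold no UTRs.

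Counts were fitted in R 4.3.3 with edgeR 4.0.16 for each species apart, with TMM, filterByExpr, glmQLFit and glmQLFTest and no covariates, and p-values were adjusted over all genes tested. Standard errors were derived from the F statistic, as the absolute log2 fold change over its square root. At this depth (18981480 to 23996907 reads on genes in *K. marxianus*), replicate spread rather than counting limits most genes. Alternatives used DESeq2 1.42.0, limma 3.58.1 on log2 TPM with a pseudocount of 1 or 0.1, other scaling and filters, the replicate number as a block, and fits without each library in turn. Only the edgeR fit was tested on simulated data, with 200 of 4887 genes changed 2- or 4-fold, evenly up and down. It called 87% of the 2-fold and 100% of the 4-fold changes, with 8 false calls among 195. With so few and such balanced changes, that test cannot speak to the dependence on scaling.

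The genes and rules were chosen with earlier results of these data known. The genes named are PAB1 and, among called genes whose temperatures did not overlap and which reached 10 counts in each library of the higher one, the gene with the largest rise, fall, gain in CPM and loss in CPM, the next one where it was already named. Gene lists by symbol were not used, since no *K. marxianus* annotation was at hand.

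Both temperatures have replicates 1 and 2 in the labels, but nothing says that a number marks a shared culture or day, and with 2 pairs they were not treated as paired.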

Additional observations from a re-analysis of the deposited data

Results flagged for a closer look

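Reads outside the gene counts of *K. marxianus* also differed between temperatures. Multiply aligned reads made up 3.25% of reads in each 46 °C library (mean 3.248%), against 1.42% and 1.27% at 37 °C (two-sided exact permutation p = 0.33, the smallest possible with 2 against 2). They were higher after heat shock here and lower in the other species, with means of 3.28% after heat shock and 3.97% in controls of *S. cerevisiae* and 1.70% and 1.94% in *S. kudriavzevii*, a difference between species that was not tested. Such reads were given to no gene, and which genes they came from is not known from the counts.

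Reads that fell on no annotated coding sequence made up 9.18% and 7.43% at 46 °C (mean 8.306%), against 6.17% and 5.96% at 37 °C (exact permutation p = 0.33). Their means were 2.06% after heat shock and 1.83% in controls of *S. cerevisiae*, and 2.23% and 2.61% in *S. kudriavzevii*. The part of these reads in the gene results was not tested.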

How the results depend on the processing

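No gene was called in opposite directions by the main fit and any of the 12 alternatives. Leaving out single libraries gave 1106 to 1445 genes called higher and 987 to 1522 called lower, the lowest without 37 °C replicate 2, and 769 to 837 higher and 728 to 865 lower by at least 2-fold. These fits assume that a lone library varies like the pair. The other settings gave 1247 to 1622 higher and 1467 to 1799 lower. Library totals in place of TMM widened the surplus of falls at 2-fold, with 705 genes higher and 1023 lower, and put 51.1% of the gain on its 10 leading genes. With TMM and single libraries left out, the 10 leading genes of each fit held 48.0% to 51.0% of the gain and 12.9% to 22.4% of the loss. By TPM the 10 most abundant genes held 31.0% at 46 °C and 28.1% at 37 °C.

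Median log2 fold changes by level moved most. From class 2 to class 5, the most abundant, they were -0.21, -0.11, -0.15 and -0.34 with library totals, and with classes of TPM 0.016 in class 2 and -0.14 in class 4. With single libraries left out they ran from -0.091 to 0.25 in class 1, from -0.073 to -0.0047 in class 2, from 0.00018 to 0.032 in class 3, from -0.12 to 0.11 in class 4 and from -0.35 to 0.15 in class 5, so no direction is given for them. The log2 fold change of KLMA_40125 was -0.82, no longer called, without 37 °C replicate 2.

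Across 4894 genes, the replicate differences (1 minus 2) at 46 °C and at 37 °C had a correlation of 0.46, a hint from the data only. The replicate block called 1622 genes higher and 1683 lower, of which 1451 and 1544 were also called without it. The lowest 37 °C counts limit the largest rises.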
